A study of Mus musculus with 6 samples.

Results

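The array used here carried 16181 probes for long intergenic noncoding RNA (lincRNA) regions among 55681 probes in all, 8171 on the F strand and 8010 on the R strand. They covered 3540 regions, of which 1067 had probes on both strands. A lincRNA probe is annotated with a chromosome interval and the suffix F or R, and in every probe with its own coordinates the order of these matched the suffix. The regions studied were chosen by measured intensity, as those with a probe that the scanner software marked well above background on all 3 arrays of at least one cell line. This gave 1190 of the 3540 regions, with 2497 passing probes, 1213 F and 1284 R. Total RNA of the mouse endothelial line 1G11 (strain C57BL/6NCrLBR) was hybridized to 6 arrays, 3 of cells without SOD3 overexpression (1G11-mock) and 3 of cells that overexpressed SOD3 (1G11-SOD3), each described by the study as an independent experiment. SOD3 is an extracellular superoxide dismutase. Before RNA isolation both lines were incubated for 6 h with conditioned medium of N202.1A mouse mammary tumor cells, so that no array shows either line in unconditioned medium. Each genotype was a single engineered line, so the SOD3 transgene and any other difference between the lines cannot be told apart.

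Long intergenic noncoding RNAs are transcripts without a long reading frame that arise between protein-coding genes. Some act in cis on the genes next to them, some assemble nuclear bodies or guide chromatin regulators, and others are hosts of microRNAs or small nucleolar RNAs. Many such loci are transcribed from both strands, so a probe reports on a single strand of its region, and the regions were described by strand for this reason.

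Sod3 itself measured 13.61, 12.66 and 9.86 on the log2 scale in 1G11-mock and 16.37, 16.29 and 16.27 in 1G11-SOD3, which did not overlap (log2 fold change 4.27, SE 0.703, limma adjusted p = 0.00791). This call was lost without 1G11-SOD3 array 3 (adjusted p = 0.0514). The Sod3 probe lies in a central block of the 384 rows and 164 columns of spots, called the middle of the array here, where the 1G11-mock arrays were dim. Among all probes there that met the same detection rule, 33% were called higher. The size of the Sod3 change therefore has to be read with its place in mind. The endothelial markers Kdr, Eng, Vwf and Esam were well above background on all 6 arrays, whereas Cdh5, Tek, Tie1 and Emcn were so on none. Of the 6 fibroblast and mural markers, 4 were called higher in 1G11-SOD3 (Col1a1, Acta2, Pdgfrb and Col1a2), and their summed log2 intensity ranged from 57.6 to 60.3 in 1G11-mock and from 67.7 to 71.0 in 1G11-SOD3. Among 10 endothelial markers only Vwf was called, lower, and the summed ranges overlapped (87.9 to 92.4 and 86.7 to 90.4). No epithelial or leukocyte marker was called, though Krt19, Itgam and Cd3e were well above background on all 6 arrays. Krt18, Epcam, Cd68 and Ptprc were so on none, and Cdh1 and Krt8 on 1G11-SOD3 arrays only. In RNA from whole cultures, fewer cells of a type and less RNA per cell cannot be told apart, and the part of these markers in the lincRNA values was not tested.

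The sequences of the probes on which the results turn are printed here 5′ to 3′ as the array files give them. Capitals mark stretches of at least 20 bases that another probe of the array holds in the same sense, and positions are those of the array annotation, which names no genome build. The first set is the chromosome 9 cluster with the greatest decrease, 3 abutting F probes, an R probe across the first of them and an R probe further upstream.
chr9:78116774-78116833, F: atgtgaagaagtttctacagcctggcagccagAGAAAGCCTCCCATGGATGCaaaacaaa
chr9:78116834-78116893, F: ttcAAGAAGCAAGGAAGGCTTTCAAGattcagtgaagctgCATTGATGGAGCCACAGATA
chr9:78116894-78116953, F: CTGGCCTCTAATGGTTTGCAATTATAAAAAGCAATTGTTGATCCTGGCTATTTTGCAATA
chr9:78116779-78116838, R: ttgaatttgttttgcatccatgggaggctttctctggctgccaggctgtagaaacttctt
chr9:78110213-78110272, R: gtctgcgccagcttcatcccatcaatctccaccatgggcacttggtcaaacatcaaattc

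The second set holds decreases whose probes share no stretch with any other probe. They are the F probe of chr17:8718223-8949898 and the 3 R probes of chr1:85304494-85305390.
chr17:8718550-8718609, F: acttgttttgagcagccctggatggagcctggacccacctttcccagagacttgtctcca
chr1:85304812-85304871, R: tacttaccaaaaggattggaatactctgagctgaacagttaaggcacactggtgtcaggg
chr1:85305009-85305068, R: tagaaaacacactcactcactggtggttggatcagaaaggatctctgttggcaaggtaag
chr1:85305069-85305128, R: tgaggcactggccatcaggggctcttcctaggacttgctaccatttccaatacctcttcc

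The third set holds increases, namely a pair of overlapping chromosome 6 probes and a chromosome 9 probe. The F and R probes that gave the called strand difference of a chromosome 5 region follow.
chr6:134879147-134879206, F: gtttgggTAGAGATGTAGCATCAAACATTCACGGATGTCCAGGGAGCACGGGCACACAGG
chr6:134879154-134879213, F: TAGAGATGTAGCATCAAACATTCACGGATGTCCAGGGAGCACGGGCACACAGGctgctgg
chr9:68400194-68400253, F: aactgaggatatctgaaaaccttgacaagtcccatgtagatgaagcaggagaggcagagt
chr5:137412766-137412825, F: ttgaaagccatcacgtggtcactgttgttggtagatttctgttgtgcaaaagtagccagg
chr5:137409647-137409706, R: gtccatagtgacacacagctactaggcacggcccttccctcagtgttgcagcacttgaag

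The last sequence is that of an R probe of chr3:100363012-100369462 in the middle of the array. A gene probe outside the middle has the same 60 bases, so that one sequence was read at both places.
chr3:100366186-100366245, R: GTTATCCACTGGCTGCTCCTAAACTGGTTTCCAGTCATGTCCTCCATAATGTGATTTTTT

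Detection was the first difference between the lines. Of the 2497 probes, 1691 were well above background on all arrays of both lines, 669 on all arrays of 1G11-SOD3 alone and 137 on all arrays of 1G11-mock alone. The share of lincRNA spots well above background was 14.2% to 15.9% on the 1G11-mock arrays and 17.5% to 24.8% on the 1G11-SOD3 arrays, with the highest share on 1G11-SOD3 array 3. The share over all spots differed in the same way, from 34.2% to 43.8%, and no lincRNA spot was saturated. A probe that passed in a single line had to differ between the lines, so these counts are a description of how the probes were chosen. The 806 probes that passed in a single line had a mean log2 intensity in the brighter line of 7.92 to 12.03, with a median of 8.53. The 613 probes just outside the rule, with at most 2 arrays of a line well above background, ranged from 7.41 to 10.02 with a median of 8.15. Of the 13684 probes that did not pass, 7 were called.

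The passing probes lay on 20 chromosomes, with 65 to 208 on each, and their regions were 104 to 508115 bp long. Their median GC content was 45%, as it was over all lincRNA probes of the array. Of 1368 passing regions by strand with coordinates, 344 contained a gene probe on the same strand, 174 contained a gene probe on the opposite strand only and 850 contained none. The median distance of a passing probe to the nearest gene probe was 7974 bp. A stretch of 20 or more bases was shared with another probe by 370 passing probes, and with a gene probe by 127 of them.

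The place of the spot mattered for these probes. Outside the middle of the array lay 2219 passing probes, whose median log2 intensity was 9.25, 9.32 and 9.40 on the 1G11-mock arrays and 9.05, 9.0 and 9.02 on the 1G11-SOD3 arrays. In the middle lay 278, with medians of 8.65, 8.54 and 8.17 in 1G11-mock and 9.08, 8.96 and 9.16 in 1G11-SOD3. The 1G11-mock arrays were thus dimmer than the 1G11-SOD3 arrays in the middle and brighter outside it. The median log2 fold change of 1G11-SOD3 over 1G11-mock was −0.23 outside and 0.52 in the middle, beside −0.11 and 1.22 for the 15200 and 1858 other probes with a single spot that passed the same rule there. Values are therefore also given after an adjustment that subtracted from each spot the local deviation of its neighbors, scaled to its intensity (the position-adjusted values, a choice made after these data were seen). After it the medians of the lincRNA probes were −0.07 outside and −0.14 in the middle, beside 0.04 and 0.18 for the other probes.

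**Figure D1:**
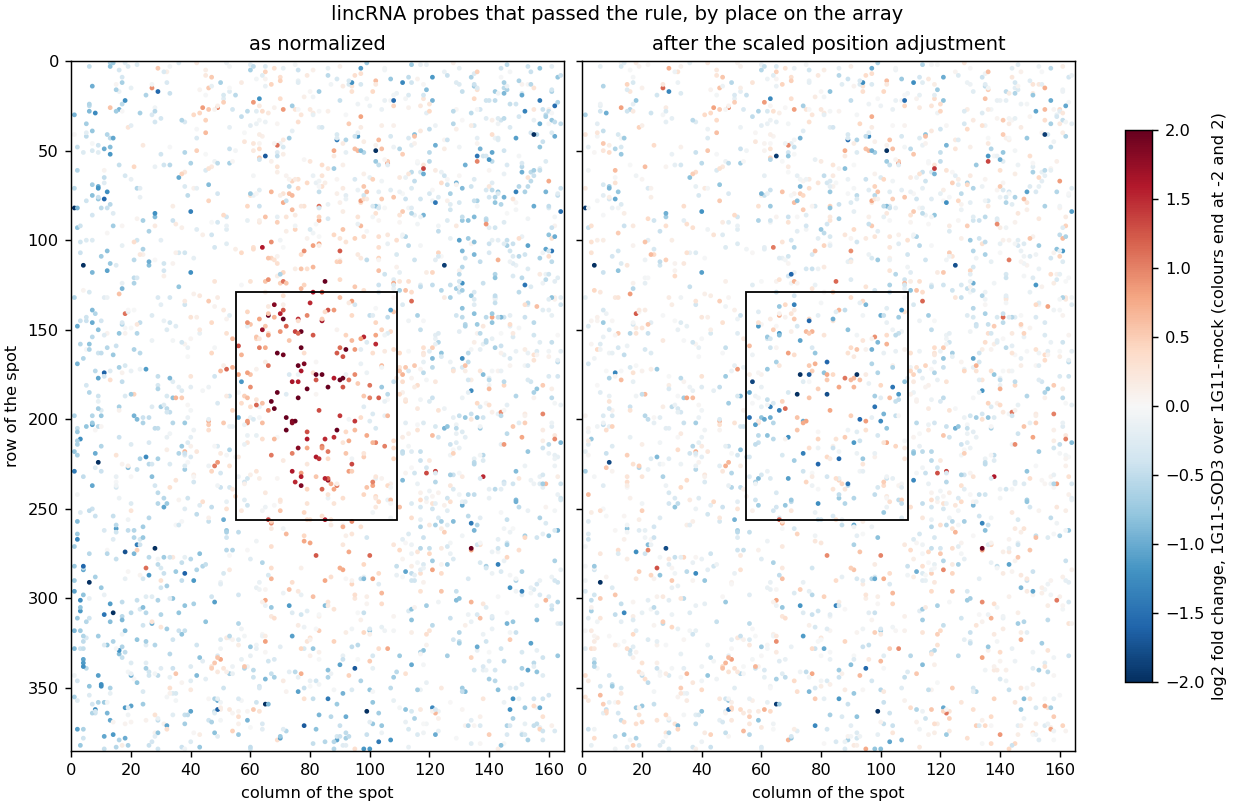
Place of the 2497 passing lincRNA probes on the array, by column and row of the spot, colored by log2 fold change of 1G11-SOD3 over 1G11-mock (red higher, blue lower, colors ending at −2 and 2), as normalized and after the position adjustment. The box marks the middle of the array, where increases gathered before the adjustment.

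Outside the middle, decreases outnumbered increases. At more than 2-fold and a limma adjusted p under 0.05 over all 55681 probes, 74 of the 2219 lincRNA probes (3.33%) were called lower in 1G11-SOD3 and 10 (0.451%) were called higher. The background was 3.18% called lower and 1.82% called higher among all 17658 probes that passed the same rule outside the middle, so the share of decreases was near that of the other probes. The 74 decreases lay in 45 loci, 40 on F and 34 on R probes, and 63 of them were well above background in both lines. All 74 kept their sign after the position adjustment and 27 of them were still called. In all, 12 lincRNA probes outside the middle (0.541%) were called higher and 30 (1.35%) lower after it, against backgrounds of 1.68% and 1.82%. The count of 74 fell to between 33 and 45 when 1G11-mock array 2 or 3 or any of the 1G11-SOD3 arrays was left out.

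The largest decreases lay in a cluster on chromosome 9. The F probe of chr9:78104935-78116974 measured 17.62, 17.63 and 17.69 in 1G11-mock and 14.09, 13.71 and 14.51 in 1G11-SOD3. These values did not overlap, and the log2 fold change was −3.54 (SE 0.248, limma adjusted p = 9.83e-05). Both passing F probes of chr9:78107225-78118850, which abut it, moved the same way. The nearer of them measured 16.91, 16.51 and 16.68 in 1G11-mock and 12.57, 13.43 and 15.04 in 1G11-SOD3 (log2 fold change −3.02, SE 0.484, adjusted p = 0.0069). The further one measured 17.44, 17.33 and 17.06 against 14.15, 14.13 and 15.04 (log2 fold change −2.83, SE 0.281, adjusted p = 0.000424). In both of these 1G11-SOD3 array 3 was the highest of its line, still below every 1G11-mock array. After the position adjustment the 3 values were −2.97, −2.75 and −2.95, all called.

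These chromosome 9 F probes cannot be assigned to a noncoding transcript alone. The last of them has the sequence of the gene probe for Gm3776, a gene that RefSeq (GRCm38.p6) lists as protein coding, and the gene probe itself had a log2 fold change of −3.0 (−2.94 position-adjusted). It also shares a stretch with a gene probe for Gm10639, likewise listed as protein coding, and the capitals of the first and second F probes are shared with a gene probe known only by its transcript and, for the second, with Gm10639. Signal of the genes and of the lincRNA regions cannot be told apart at these probes. On the R strand of chr9:78107225-78118850, 3 of 4 passing probes were called lower, and 1 of them, the first described here, after the position adjustment (the others −0.81 and −1.05). The R probe at 78110213 measured 10.68, 11.30 and 10.94 in 1G11-mock and 8.68, 8.72 and 8.77 in 1G11-SOD3, a log2 fold change of −2.25 (SE 0.233, adjusted p = 0.000561; −1.90 position-adjusted). The R probe printed across the junction of the first F probes shares no stretch with another probe in its own sense and had a log2 fold change of −1.16, which was not called.

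Further decreases came from probes whose sequence was found on no other probe. On chromosome 17, the F probe of chr17:8718223-8949898 measured 10.82, 11.50 and 11.29 in 1G11-mock and 8.60, 8.58 and 8.84 in 1G11-SOD3 (log2 fold change −2.53, SE 0.244, limma adjusted p = 0.000389; −1.91 position-adjusted). All 3 R probes of chr1:85304494-85305390, an interval of 897 bp, were called lower before and after the adjustment. The first measured 10.98, 9.90 and 10.34 in 1G11-mock and 7.88, 8.28 and 7.55 in 1G11-SOD3, where 1 of 3 arrays was well above background (log2 fold change −2.51, SE 0.305, adjusted p = 0.00155). The remaining probes had log2 fold changes of −2.11 and −2.22. No array of one line overlapped the other for these 3 probes, and their position-adjusted values ran from −1.99 to −1.80.

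On the same chromosome both R probes of chr1:85036677-85038530 were called lower, at −2.20 and −1.61 (position-adjusted −1.79 and −1.30). The first of these measured 11.63, 11.05 and 12.07 in 1G11-mock and 10.20, 9.53 and 8.43 in 1G11-SOD3 (SE 0.409, limma adjusted p = 0.0152). Its call was lost without 1G11-mock array 3 or 1G11-SOD3 array 3, which were the highest and the lowest of the 6, with adjusted p up to 0.0624.

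**Figure D2:**
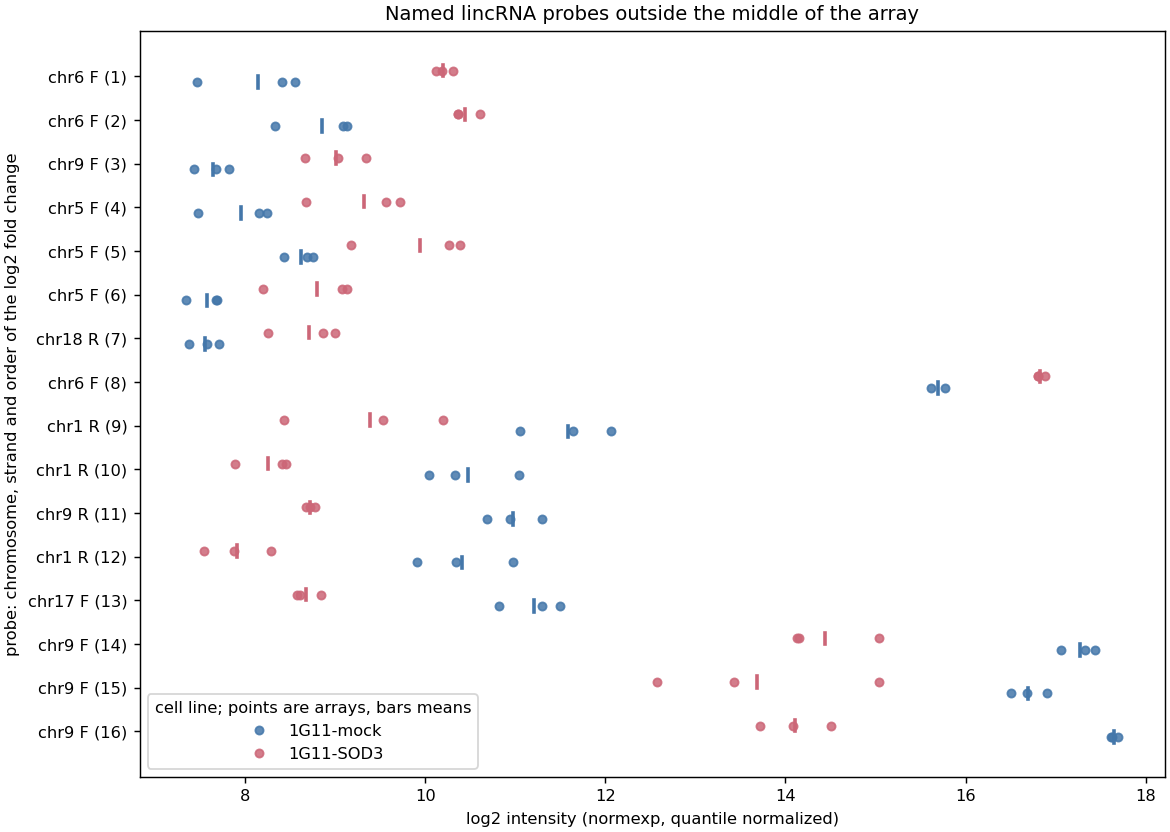
Log2 intensity (normexp, quantile normalized) of the 8 most increased and 8 most decreased lincRNA probes outside the middle of the array, in the order of their log2 fold change; points are arrays, vertical bars the means of each line. Absence of overlap between the lines was a condition for choosing these 16 probes and is not a result. The gap between the lines is widest for the chr9 F probes.

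Several regions had more than a single called probe, which allowed the probes of a strand to be set beside each other. In chr17:26911397-26917047, 8 of 10 F probes were called lower and the log2 fold changes of all 10 ran from −1.59 to −0.70. After the position adjustment 6 were called and the values ran from −1.34 to −0.83. The single passing R probe of this region had −0.87 and was not called. All 3 F probes of chr4:149445201-149445902 were called lower (−1.45 to −1.19), and 2 of them after the adjustment. In chr3:146629425-146649125, 3 of 4 F probes were called lower (−1.75 to −0.93), and 1 after the adjustment. Every passing F probe of these regions had a value below 0 before and after the adjustment.

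The position adjustment removed the calls of other regions. All 4 passing R probes of chr14:20893694-20903726 were called lower (−1.23 to −1.07), but at −0.79 to −0.46 none was after the adjustment. Both passing F probes of that region were not called (−0.13 and 0.15). In chr6:31115515-31168433, 2 of 3 R probes were called lower (−1.27 to −1.02) and none after the adjustment (−0.90 to −0.67). At the Pvt1 locus, which yields a long noncoding RNA next to Myc, 2 F probes of chr15:62046023-62082530 were called lower, at −1.17 and −1.05. The first of these has the same 60 bases as a Pvt1 gene probe outside the middle, which had −0.71 and was not called, and another Pvt1 gene probe had −0.46 and was not called. The third F probe of the region lies in the middle of the array and had 0.26. After the adjustment the 3 F probes ran from −0.81 to −0.50, all of the same sign and none called. Probes of a strand did not move alike in chr4:13369325-13456750, where an F probe in the middle was called higher (1.86), another outside it was called lower (−1.06) and the remaining one had 0.19, with none called after the adjustment (−1.01 to −0.32). In chr18:61781410-61788685, 3 of 4 passing R probes were called higher, 2 of them in the middle (0.62 to 1.83 over the 4), and none was after the adjustment (0.55 to 0.99). In chr6:116123643-116124550, 2 of 3 F probes were called higher, 1 of them in the middle (0.55 to 1.49 over the 3), and none after the adjustment (0.46 to 0.70).

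The region chr19:5771425-5848475 covers Neat1, the RNA scaffold of nuclear paraspeckles, and Malat1, an RNA of nuclear speckles, whose gene probes lie on the R strand. Of its 9 passing F probes 2 were called lower, at −1.47 and −1.21, and the others ran from −0.98 to 0.37. After the position adjustment these had −1.17, still called, and −0.97, not called, and an F probe in the middle with 0.37 as normalized was called at −1.16. On the opposite strand 3 of 6 Neat1 probes were called lower as normalized, with all 6 between −1.60 and −0.52, and all 6 after the adjustment (−1.30 to −1.09). One of them measured 16.68, 16.68 and 16.50 in 1G11-mock and 15.14, 15.44 and 15.62 in 1G11-SOD3 (log2 fold change −1.22, SE 0.226, limma adjusted p = 0.015; −1.09 position-adjusted). Calls of decrease were thus made on both strands of the locus, and whether the F probes read an antisense transcript was not tested. Malat1 had a log2 fold change of −0.56 and was not called. On the same strand, probes annotated NEAT2 outside the middle had −0.41 and −0.10 and were not called. A NEAT2 probe in the middle was called higher as normalized, at 2.45, and not after the adjustment, at 0.27. The passing R lincRNA probe of the region had −0.48 and was not called.

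**Figure D3:**
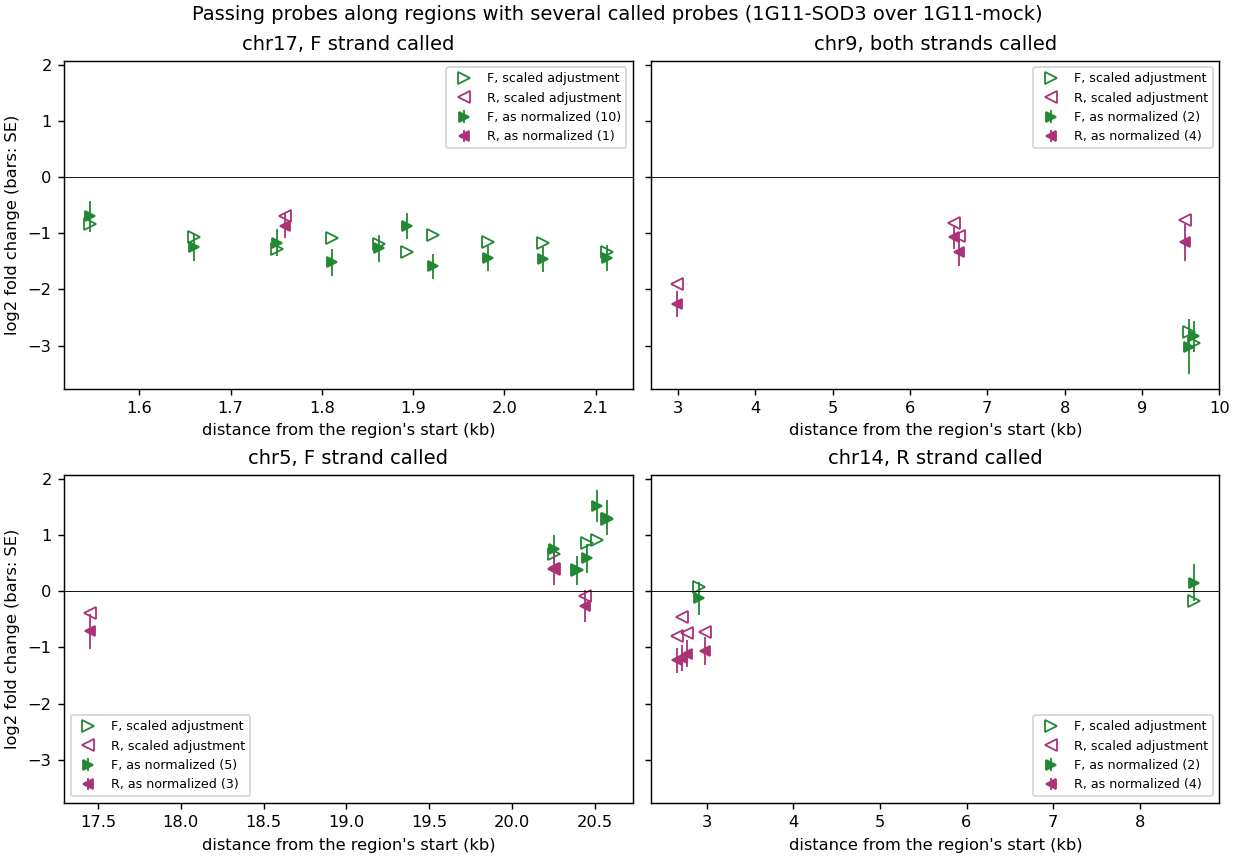
Log2 fold change (1G11-SOD3 over 1G11-mock, bars SE, n = 3 arrays a line) of the passing probes of regions with several called probes, against the distance from the region's start in kb; filled symbols as normalized, open symbols position-adjusted, with F and R in different symbols. The F probes of the chr17 region stay below 0 before and after the adjustment, whereas the chr14 R probes move toward 0.

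Over all 258 regions by strand with at least 3 passing probes outside the middle (959 probes), the median SD of the log2 fold change among probes of a region and strand was 0.249. The SD over all passing probes outside the middle was 0.502. After the position adjustment these were 0.164 and 0.436. In 137 of the 258 all probes had the same sign, and in 147 after the adjustment. Probes of a region share their transcripts and are not replicates.

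The 10 increases outside the middle lay in 7 loci, 9 of them on F probes, and 8 of the 10 had passed in 1G11-SOD3 alone. All 10 kept their sign after the position adjustment and 6 were still called. Without 1G11-mock array 2 or 3 or 1G11-SOD3 array 1 or 2, the count was 3 in place of 10. At the top of the list, the F probe of chr6:134875724-134931975 measured 8.40, 8.55 and 7.46 in 1G11-mock, with 2 of 3 arrays well above background, and 10.18, 10.11 and 10.31 in 1G11-SOD3. Its log2 fold change was 2.06 (SE 0.293, limma adjusted p = 0.00356; 1.14 position-adjusted, still called). A second F probe there, of chr6:134879009-134880130, shares 53 bases with it and measured 9.12, 9.08 and 8.33 against 10.36, 10.61 and 10.36 (log2 fold change 1.60, SE 0.262, adjusted p = 0.00761; 1.05 position-adjusted, still called). Both probes read the same stretch and count as a single observation, and their spots, at rows 123 and 104, lie just beside the dim part of the 1G11-mock arrays. The gene probe of Lockd, a long noncoding RNA downstream of the cell cycle inhibitor gene Cdkn1b, lies in the first of these regions and in the middle of the array, and had a log2 fold change of 3.34 (1.37 position-adjusted, called both times).

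The F probe of chr9:68349343-68411643 was well above background on no 1G11-mock array and on all 1G11-SOD3 arrays. It measured 7.68, 7.82 and 7.42 in 1G11-mock and 9.34, 9.03 and 8.66 in 1G11-SOD3, which makes the increase at least 1.90-fold (log2 fold change 1.37, SE 0.248, limma adjusted p = 0.013). Such a bound sets the 1G11-SOD3 mean against the lowest signal that was well above background on each 1G11-mock array. The position-adjusted value was 1.41, still called, and the call was lost without 1G11-SOD3 array 1 (adjusted p = 0.0648). The spot lies at row 60, away from the middle.

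On chromosome 5 a pair of neighboring F probes rose together. The probe of chr5:137411861-137413010 measured 8.15, 7.47 and 8.24 in 1G11-mock, with 1 of 3 arrays well above background, and 9.72, 9.56 and 8.67 in 1G11-SOD3 (log2 fold change 1.36, SE 0.318, limma adjusted p = 0.0442). The probe of chr5:137392195-137426421 printed above measured 8.42, 8.68 and 8.75 against 10.38, 10.26 and 9.17 (log2 fold change 1.32, SE 0.314, adjusted p = 0.0485). In both, 1G11-SOD3 array 3 was the lowest of its line and the lines did not overlap. Both calls held after the position adjustment (1.36 and 1.29), and each was lost when any array other than 1G11-SOD3 array 3 was left out, with adjusted p up to 0.192.

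The remaining named increases outside the middle were not called after the position adjustment. Well above background on no 1G11-mock array, the F probe of chr5:23195569-23218551 measured 7.67, 7.35 and 7.69 against 9.13, 9.07 and 8.19 and was at least 1.63-fold higher (log2 fold change 1.23, SE 0.282, limma adjusted p = 0.0407; 0.93 position-adjusted). The R probe of chr18:61781410-61788685 measured 7.71, 7.37 and 7.57 against 8.87, 9.0 and 8.25 and was at least 1.53-fold higher (log2 fold change 1.16, SE 0.255, adjusted p = 0.0338; 0.99 position-adjusted). Both calls were lost when any array other than 1G11-SOD3 array 3 was left out. A further increase was that of the F probe of chr6:116123643-116124550, at 15.78 and 15.61 in 1G11-mock, where the spot of array 2 was dropped as an outlier, and 16.80, 16.88 and 16.81 in 1G11-SOD3. Its log2 fold change was 1.13 (SE 0.245, adjusted p = 0.0356; 0.46 position-adjusted), and the call was lost when any single array was left out and with the replicate number as a block (adjusted p = 0.0614).

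In the middle of the array 50 of 278 lincRNA probes (18%) were called higher and 1 (0.360%) lower, against backgrounds of 33% and 0.14% among all 2136 passing probes there. Of the 50, 39 had passed in 1G11-SOD3 alone. After the position adjustment 2 of the 50 were still called and 44 kept their sign. In all, 2 lincRNA probes in the middle (0.719%) were then called higher and 14 (5.04%) lower, against backgrounds of 2.95% and 2.06%. The count of 50 fell to between 15 and 24 without 1G11-mock array 2 or 3 or 1G11-SOD3 array 1 or 3.

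The largest of these values came from the R probe of chr17:39960567-39992817, with 9.75, 9.17 and 8.99 in 1G11-mock and 14.16, 13.15 and 13.10 in 1G11-SOD3 (log2 fold change 4.17, SE 0.321, limma adjusted p = 0.00013). Its position-adjusted value of 0.48 was not called. Of its 60 bases, 51 lie in stretches shared with another probe. The region also contains the gene probe for Rn18s, on the F strand, which had 1.24 (SE 0.815) and was not called. On chromosome 18, the F probe of chr18:23922600-23937275 measured 12.68, 9.59 and 9.05 against 14.48, 13.15 and 14.06 (log2 fold change 3.46, SE 0.743, adjusted p = 0.03), and its position-adjusted value of 0.55 was not called either. In chr9:14460976-14488051 the F probe measured 9.92, 7.69 and 7.89, with 1 of 3 arrays well above background, against 12.01, 11.35 and 12.73 (log2 fold change 3.53, SE 0.529, adjusted p = 0.00481). It was still called after the adjustment, at 1.13.

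The region chr5:74487385-74497428 was read at both places. Its F probe in the middle measured 8.59, 6.90 and 7.42 in 1G11-mock and 11.52, 10.20 and 11.09 in 1G11-SOD3 (log2 fold change 3.30, SE 0.431, limma adjusted p = 0.00238; 0.81 position-adjusted, not called). Another F probe of the region, outside the middle, has the sequence of the gene probe for Dancr, a long noncoding RNA that hosts small nucleolar RNAs, and these had −0.09 and −0.06. The R probe at chr3:100366186, also in the middle, measured 11.53, 10.85 and 8.77 against 12.90, 12.16 and 13.58 (log2 fold change 2.50, SE 0.59, adjusted p = 0.0459). The identical probe for Man1a2, an enzyme of N-glycan trimming, lies outside the middle and measured 13.30, 13.03 and 13.07 against 12.51, 12.45 and 12.90 (log2 fold change −0.51, SE 0.228, adjusted p = 0.336). The same 60 bases thus gave an increase in the middle and no call outside it, and the position-adjusted values were −0.11 and −0.04. This pair was chosen after its values were seen. The single decrease in the middle, an R probe of chr3:86827945-86886695 that had passed in 1G11-mock alone, was called at −1.16 and remained called after the adjustment at −1.84. Its call was lost when any single array was left out, without background correction and with outlier spots kept.

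Strand was compared in the 1067 regions with probes on both strands. Both strands had a passing probe in 188 of them, F alone in 195, R alone in 214 and neither in 470. For each region the brightest F and R probes were set against each other, and the difference F minus R within an array was compared between the lines, since the levels of different probes cannot be compared. Both of these probes passed in 182 regions, and both also lay outside the middle in 151. In those 151 the log2 fold changes of F and R had the same sign in 98 and lay within 1 of each other in 138, with a median difference of 0.39 in size. Across these regions, which share the 6 arrays, Pearson's r of the F and R changes was 0.277 and Spearman's rho 0.141 (0.404 and 0.308 position-adjusted).

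A strand difference was called in 9 of all 1067 regions (0.843%) and in 1 of the 182 with both probes passing, at an adjusted p under 0.05 over the 1067 and a difference over 1 on the log2 scale. Of the 182, 30 had an unadjusted p under 0.05. The count was 2 with the replicate number as a block and 5 after the position adjustment (background 0.937%), 3 without 1G11-mock array 1, and 0 without 1G11-mock array 2, 1G11-SOD3 array 1 or 1G11-SOD3 array 2.

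The region called was chr5:137392195-137426421, the F and R probes of which are printed above. F minus R was −0.50, −1.30 and −1.43 in 1G11-mock and 1.44, 1.23 and 0.19 in 1G11-SOD3, without overlap. The change of F exceeded that of R by 2.03 (SE 0.41, limma adjusted p = 0.012; 1.68 position-adjusted, still called). The F probe had a log2 fold change of 1.32, and the R probe had −0.71 and was not called. That R probe had the lowest value of the 3 that passed, and the others, at −0.26 and 0.42, were not called either, so the size of the difference depends on which R probe stands for its strand. Of its 5 passing F probes all had values above 0 (0.38 to 1.52), and 2 were called, 1 of them in the middle. The F and R probes printed above do not overlap. Where passing F and R probes of the region overlapped by at least 20 bases, F had 0.76 beside R at 0.42, and F had 0.59 beside R at −0.26. None of these overlapping probes was called. When single arrays were left out the strand difference ran from 1.78 to 2.41 with adjusted p up to 0.0885.

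The other regions with large strand differences were not called. At chr6:112552041-112560067 the F change fell short of the R change by 1.41 (difference −1.41, SE 0.392, limma adjusted p = 0.084; −0.67 position-adjusted), with F at −0.59 and R at 0.82. Here the R probe, and at chr5:23195569-23218551 the F probe, was well above background on no 1G11-mock array, so these differences have no exact size. At chr5:23195569-23218551 the difference was 1.35 (adjusted p = 0.156; 0.84 position-adjusted), with the F increase given above and R at −0.12. The other 4 passing R probes of this region had values above 0, like F, from 0.30 to 1.61, and the highest of them, in the middle, was called. At chr14:20893694-20903726 it was 1.35 (adjusted p = 0.189) and 0.28 position-adjusted. The regions chr16:8738782-8830148 (−1.34, adjusted p = 0.252; −1.93 position-adjusted) and chr9:20784567-20799942 (1.28, adjusted p = 0.131; 0.85 position-adjusted) were not called either. In chr16:8738782-8830148 the R probe used had 1.51 and the other passing R probe −0.14. In the last of these the R probe itself was called lower, at −1.43 (−1.05 position-adjusted, still called), with F at −0.15.

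**Figure D4:**
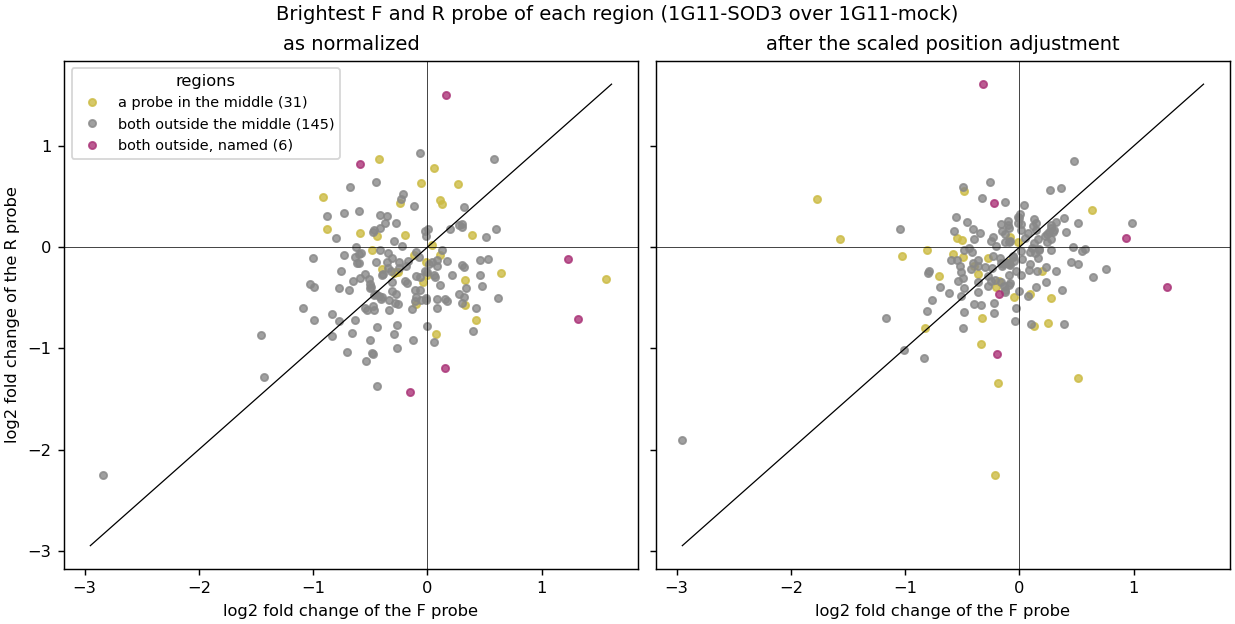
Log2 fold change (1G11-SOD3 over 1G11-mock) of the brightest F probe against that of the brightest R probe for the 182 regions with both passing, as normalized and position-adjusted; the line marks equal change, and the 6 named regions and regions with a probe in the middle have colors of their own. Most of the 151 regions with both probes outside the middle lie within 1 of the line.

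Probes of opposite strands that overlapped by at least 20 bases gave a closer comparison, since both read the same stretch of genome. There were 2144 such pairs. Both probes passed in 67, a single probe passed in 506 (F in 243 and R in 263) and neither passed in 1571. Of the 67, 55 had both probes outside the middle, and their changes had the same sign in 32 and differed by a median of 0.44 (0.27 position-adjusted). At least 1 probe was called in 3 of the 55, and both probes in none. The chromosome 9 cluster was among these, where the first F probe had −3.54 and the R probe overlapping it by 55 bases had −1.16.

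Of the passing lincRNA probes 86 overlapped a gene probe of the same strand by at least 20 bases. Where both lay outside the middle (62 pairs, 53 genes), the log2 fold changes lay within 1 of each other in 58. The median difference was 0.24 and Pearson's r 0.736 (0.15 and 0.903 position-adjusted). Spearman's rho was lower, at 0.580 (0.816 position-adjusted). These pairs share bases and arrays. In 23 pairs a single probe lay in the middle, and that probe had the higher value in 21, by a median of 0.85. After the adjustment it was higher in 9, and the median was −0.06. Named pairs outside the middle include the R probe of chr14:62263564-62307496 and Dleu2, the noncoding host of the miR-15a and miR-16 hairpins, with −1.38 and −1.37, and chr6:31115515-31168433 and AB041803, with −1.27 and −1.19. After the adjustment the lincRNA probe of the Dleu2 pair, though identical in sequence, had −0.66 and lost its call, while the gene probe had −1.0 and kept it. The second pair then had −0.89 and −1.20, neither of them called. The identical probes of chr15:58928225-58939975 and Q7TPA6, the second of them in the middle, had −1.46 and −0.23, and −0.49 and −2.14 after the adjustment, which did not bring this pair together.

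**Figure D5:**
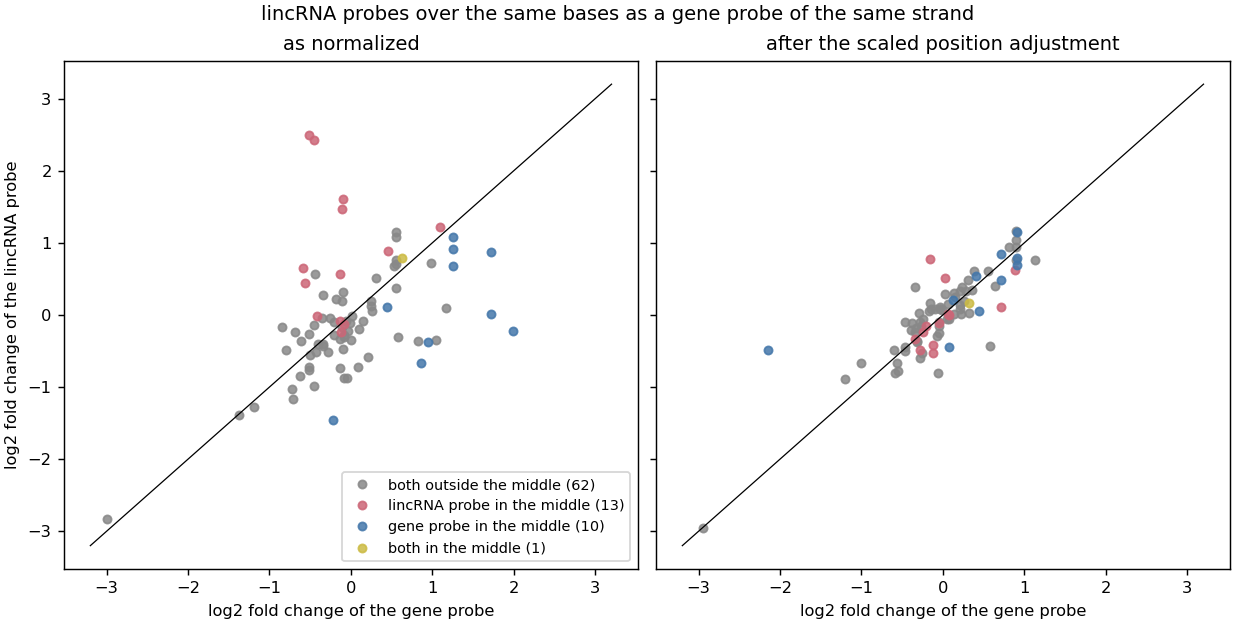
Log2 fold change (1G11-SOD3 over 1G11-mock) of the 86 lincRNA probes against that of the gene probe over the same bases and strand, as normalized and position-adjusted, with colors for pairs outside the middle and pairs with a probe in it; the line marks equal change. In 21 of the 23 pairs with a single probe in the middle that probe is the higher as normalized, and in 9 after the adjustment. Some of these pairs, such as that of Q7TPA6, lie further from the line after it.

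Of 30 long noncoding RNA genes listed by symbol, 19 had a gene probe on the array and 16 were well above background on all arrays of a line. H19, Dnm3os and Meg3, all imprinted or developmental transcripts, were well above background on none. Lower in 1G11-SOD3 were Neat1 and Dleu2, the latter with 10.22, 10.04 and 10.34 in 1G11-mock and 8.90, 8.71 and 8.88 in 1G11-SOD3 (log2 fold change −1.37, SE 0.216, limma adjusted p = 0.00629). Both calls held after the position adjustment. Called higher were Snhg6, a host of small nucleolar RNAs, and Peg13, an imprinted transcript, at 2.68 and 2.20. Their spots are in the dim middle, and the position-adjusted values of −0.18 and 0.12 were not called. Kcnq1ot1, the antisense transcript of the imprinted Kcnq1 domain, had −1.52 (adjusted p = 0.053) and was called lower after the adjustment, at −1.19. The median log2 fold change of the 19 genes was −0.01 (−0.19 position-adjusted), beside −0.03 over all probes (0.0035 position-adjusted). Of the 19, 2 were called higher and 2 lower, and 0 and 3 after the adjustment. Over all probes 1.86% were called higher and 1.05% lower (0.659% and 0.708% position-adjusted). Among probes outside the middle that were well above background on all arrays of a line, the shares were 1.82% and 3.18%.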

How the data were processed

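Cy3-labeled RNA was hybridized to Agilent SurePrint Mouse G3 8 × 60 arrays. The authors deposited the spot intensity output of Agilent Feature Extraction 10.7.3.1, without normalization between arrays. Their own log2 table, corrected by normexp at the same offset and quantile normalized, was also deposited and served as an alternative. From the mean intensity and the background median, intensities were corrected by normexp (offset 50). Quantile normalization followed on the log2 scale in limma 3.58.1 (R 4.3.3). Control spots and outlier spots were left out, and spots of a probe were averaged. The lines were compared by limma with Benjamini-Hochberg adjustment over all 55681 probes, and a call required an adjusted p under 0.05 with a change above 2-fold. F minus R of a region was tested likewise over 1067 regions, each strand by its brightest probe. The number of arrays, 3 a line, and signal over background limit the precision.

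The position adjustment subtracted a Gaussian surface (4 columns, 8 rows). Among 6 bandwidths this one gave the lowest SD of the line difference among copies of 231 repeated probes. That SD fell from 0.643 to 0.232, which is no independent check, since the bandwidth was chosen by it. It fell to 0.167 when the surface was scaled by intensity. The scaled version was chosen after the data were seen, as was the replacement of a first version whose scaling was capped. Python 3.11.15 with pandas 2.3.3, numpy 2.4.6 and matplotlib 3.10.9 served for summaries and plots. On simulated data 196 of 200 probes changed by 3 on the log2 scale were found among 55681, with 6 false calls, and 50 of 50 strand differences of 4 among 1067 regions, with 5 false calls. The called decreases outside the middle had a smaller median (−1.27), as had the called strand difference (2.03). The simulation held no effect of place, and the most variable probes were not among the 200. These counts therefore do not give the recovery of smaller changes or the false calls in the real data.

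Replicate numbers came from the sample titles. Deviations of same-numbered arrays from their line's mean correlated at 0.200, 0.141 and 0.138, so the numbers were taken to pair the arrays, and a block for the number was fitted as an alternative. Values and calls in the text come from the model without this block, unless the block is named. With the block, 1450 of all 55681 probes were called higher and 791 lower, in place of 1038 and 586. All regions lie in the coordinates of the array annotation, whose build is not given in the sources used here, and gene names were taken from the files and from RefSeq tables of GRCm38.p6, used for names only. The probes named were, outside the middle, the 8 called higher and the 8 called lower with the largest change and no overlap, the 4 called in the middle with the largest change, the 6 regions with the largest strand difference, every region with 2 or more called probes of a strand, and Sod3. The members and gene lists were chosen with earlier results of these data known.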

Additional observations from a re-analysis of the deposited data

How the results depend on the processing

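Counts outside the middle, 10 higher and 74 lower, were 3 and 42 without background correction, 37 and 133 on the processed signal, 17 and 35 after the unscaled position adjustment, 18 and 39 with the middle left out, and 12 and 30 after the scaled adjustment, which was chosen after the data were seen. In the middle, 50 higher and 1 lower became 16 and 0 without background correction, 3 and 24 after the unscaled and 2 and 14 after the scaled adjustment, and the lower count was 20 on the processed signal and 0 with outlier spots kept. The count of strand differences was 3, 0, 6 and 5 without background correction, on the processed signal and after the unscaled and scaled adjustments, and 2 with the replicate block. With single arrays left out, the counts ran from 3 to 9 higher and 33 to 73 lower outside the middle, from 15 to 65 higher and 0 to 0 lower in the middle, and from 0 to 3 for the strand difference. The processed signal shifted the median log2 fold change of all probes to −0.52 and scaling to the 75th percentile to −0.33, against −0.03, so changes there are relative to these. The replicate block changed the call of 1 of 70 singly named probe and strand values, the F probe of chr6:116123643-116124550, and no other. Of these 70, 65 kept their sign and side of the threshold with the deposited table, 38 after the scaled adjustment and 41 to 56 with an array left out. The cause of the other changes was not tested.

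Among the singly named values, signs turned for 6 probes, of which both in the middle had been called. Other probes of the regions described turned sign as well and are not counted here. Examples in the middle are the Pvt1 F probe (0.26 to −0.59 after the scaled adjustment) and an F probe of chr19:5771425-5848475 (0.37 to −1.16). The R probe of chr18:61781410-61788685 in the middle went from 1.83 to −0.45 after the unscaled adjustment, and the F probe of chr4:13369325-13456750 from 1.86 to −0.58 and, after the scaled adjustment, −1.01. The F probe of chr6:112552041-112560067 had 0.0048 on the processed signal. The R probe of chr5:23195569-23218551 had 0.10 on the processed signal, 0.12 and 0.089 after the unscaled and scaled adjustments, 0.039 with the middle left out and −0.35 to 0.20 with single arrays left out (above 0 without 1G11-mock array 3). The F probe of chr14:20893694-20903726 had −0.26 on the processed signal, −0.14 and −0.18 after the adjustments, and −0.18 to 0.49 with single arrays left out (below 0 without 1G11-mock array 3, −0.18, or 1G11-SOD3 array 2, −0.044). The F probe of chr16:8738782-8830148 had −0.46, −0.33 and −0.32 on the processed signal and after the adjustments.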
